A study of Mus musculus with 15 samples.

Results

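The transcripts described here are those of 32 genes of cholesterol synthesis and sterol handling, taken by symbol from a list and found in both count tables among 24134 genes, each under its Entrez identifier. They comprise 18 enzymes of cholesterol synthesis (*Acat2*, *Hmgcs1*, *Mvk*, *Pmvk*, *Mvd*, *Idi1*, *Fdps*, *Fdft1*, *Sqle*, *Lss*, *Cyp51*, *Tm7sf2*, *Msmo1*, *Nsdhl*, *Hsd17b7*, *Ebp*, *Sc5d* and *Dhcr7*) and 4 genes that control SREBP (*Insig1*, *Srebf1*, *Srebf2* and *Scap*). The cytosolic sterol carrier *Stard4* stands alone. The others are 5 genes of the LXR receptors and their efflux and target genes (*Nr1h2*, *Nr1h3*, *Abca1*, *Abcg1* and *Mylip*), 2 genes of lysosomal cholesterol export (*Npc1* and *Npc2*) and 2 oxysterol enzymes (*Cyp7b1* and *Ch25h*). All 32 passed the filter on low counts used in the main fits, while *Ch25h* did not pass a stricter filter used as an alternative.

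RNA was sequenced from primary articular chondrocytes of ICR mouse pups in the first week of life, taken from femoral condyles and tibial plateaus and cultured in medium with serum. The siRNA table holds cells transfected with a control siRNA (siCtrl) or with siRNAs against both *Tnks* and *Tnks2* (siTnks/2), the genes of the tankyrases, which attach poly(ADP-ribose) to other proteins. The drug table holds cells kept for 108 h in the solvent DMSO, in 10 μM XAV939 or in 10 μM IWR-1, a pair of small-molecule tankyrase inhibitors. Each of the 5 groups has 3 libraries, described as biological replicates; whether an animal's cells or a pool of animals made up a replicate is not stated in the sources used here, nor is the time between transfection and harvest.

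Cells build cholesterol from acetyl-CoA through mevalonate, farnesyl diphosphate, squalene and lanosterol. When the membranes of the endoplasmic reticulum hold little sterol, SCAP escorts the SREBP precursors to the Golgi, where the factors are released and switch on the synthesis genes, and INSIG1 holds SCAP back when sterol is plentiful. Oxysterols both favour that retention and activate the LXR receptors, which raise the efflux pumps ABCA1 and ABCG1 and the ubiquitin ligase MYLIP, which limits the uptake of lipoproteins.

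Sequence upstream of the genes was read from RefSeq promoter windows (GRCm38.p6, 250 bases before to 50 after a start site), which matched 25 of the 32 members and 15 of the 18 synthesis enzymes. The 6 enzymes printed here are some of those called in the comparisons below, and *Ch25h*, the member with the largest change, is printed beside them. *Acat2* and *Hsd17b7*, also called below, have windows that are not printed. Lengths of 80 to 180 bases were set gene by gene. Each stretch runs 5′ to 3′ on the gene's own strand and ends at the last base before the annotated gene. Capitals mark the CCAAT box bound by NF-Y (CCAAT, or ATTGG on the other strand) and, in *Hmgcs1*, one match to the sterol regulatory element TCACNCCAC.
*Hmgcs1*, chr13:119690171-119690350, + strand: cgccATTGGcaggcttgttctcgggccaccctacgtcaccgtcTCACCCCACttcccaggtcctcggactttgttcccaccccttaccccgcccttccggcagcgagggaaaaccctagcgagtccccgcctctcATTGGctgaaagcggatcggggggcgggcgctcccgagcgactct
*Mvk*, chr5:114444089-114444263, + strand: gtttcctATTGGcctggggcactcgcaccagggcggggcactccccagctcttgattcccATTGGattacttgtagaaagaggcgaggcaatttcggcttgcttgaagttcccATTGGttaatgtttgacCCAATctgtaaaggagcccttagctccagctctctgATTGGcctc
*Mvd*, chr8:122443423-122443502, - strand: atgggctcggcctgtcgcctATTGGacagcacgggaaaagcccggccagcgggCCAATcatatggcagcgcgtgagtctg
*Idi1*, chr13:8885526-8885605, + strand: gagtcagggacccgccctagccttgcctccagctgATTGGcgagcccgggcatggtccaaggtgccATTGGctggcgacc
*Nsdhl*, chrX:72918401-72918520, + strand: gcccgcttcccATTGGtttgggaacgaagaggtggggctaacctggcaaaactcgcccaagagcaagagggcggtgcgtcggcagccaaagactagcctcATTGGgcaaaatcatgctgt
*Tm7sf2*, chr19:6067851-6067930, - strand: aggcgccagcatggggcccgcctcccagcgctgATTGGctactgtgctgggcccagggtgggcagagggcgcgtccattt
*Ch25h*, chr19:34475149-34475268, - strand: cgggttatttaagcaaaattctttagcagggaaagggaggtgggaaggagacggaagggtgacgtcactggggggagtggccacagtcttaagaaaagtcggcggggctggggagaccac

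A CCAAT box on either strand stood in the windows of 14 of the 15 enzymes with one (*Acat2* was the exception), in 1 of 4 LXR-type genes and in 3 of 4 genes of SREBP control, against 41.1% of all 27025 genes with a window and 37.4% of all 32851 windows. *Mvk* held 5 boxes, *Hmgcs1* and *Nsdhl* 4 each and *Mvd* and *Idi1* 2 each, some of them beyond the stretches printed. The sterol regulatory element, searched as TCACNCCAC on both strands, was found in 1 of the 15 enzymes and in 1.44% of all genes. The E-box CACGTG was found in 3 of the 15 enzymes and in 8.09% of all genes, and the LXR element, AGGTCA repeated after a spacer of 4 bases, in none of the members and in 0.0148% of genes. No match overlapped a match of another motif in the stretches printed. These are matches of letters in a short window and not measured binding.

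Library totals lay between 26857070 and 36615194 counts. With siTnks/2, *Tnks* was 19.5, 12.7 and 24.0 CPM (counts scaled to library size with TMM factors) against 69.0, 58.4 and 70.1 with siCtrl, and *Tnks2* 58.2, 44.9 and 61.2 against 118, 119.6 and 115. The 12 chondrocyte markers were present in every group, with summed levels of 28314 to 38416 CPM with DMSO, 40403 to 59985 with XAV939, 97491 to 123452 with IWR-1, 94630 to 126537 with siCtrl and 137305 to 221548 with siTnks/2. The 8 fibroblast or synovial markers summed to 6154 to 7756 CPM with DMSO, 2956 to 4425 with XAV939 and 2245 to 4102 with IWR-1. In RNA from whole cultures, fewer cells of a type and less RNA per cell cannot be told apart. Values of the 2 tables came from separate sets of libraries and are set side by side here without a test of level.

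The first comparison asked what loss of both tankyrase transcripts did to the sterol genes. Synthesis transcripts fell in part: *Mvd*, *Mvk*, *Fdps*, *Lss* and *Nsdhl* were lower, and no enzyme was called higher at an adjusted p under 0.05. Across the 32 members, 3 were higher and 5 lower, against 10.4% higher and 7.61% lower of the 13672 genes tested. The 3 higher members were *Cyp7b1*, *Npc1* and *Scap*. The median log2 fold change of the 18 enzymes was -0.13, with 4 above and 14 below 0, and that of all genes tested was -0.00.

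*Mvd*, which decarboxylates mevalonate diphosphate, was 36.9, 34.6 and 38.1 CPM with siCtrl and 23.9, 23.2 and 24.9 with siTnks/2. All knockdown libraries lay below all controls, and the log2 fold change was -0.61 ± 0.07 (SE, n = 3 per group; edgeR adjusted p = 0.00413). *Mvk*, the kinase that acts first on mevalonate, was 49.5, 42.0 and 48.6 CPM with siCtrl and 33.8, 28.4 and 33.1 with siTnks/2. It was lower in every knockdown library too, with a log2 fold change of -0.56 ± 0.10 (edgeR adjusted p = 0.0135). *Fdps*, which makes farnesyl diphosphate, was 168, 148 and 169 CPM with siCtrl and 129.8, 114 and 126 with siTnks/2 (-0.39 ± 0.08, edgeR adjusted p = 0.0197). Again the groups did not overlap, but *Fdps* shares 26.7% of its exon bases with the overlapping gene model *Gm43738* on the same strand, so its counts are less certain. Lanosterol synthase *Lss* (-0.43 ± 0.10) and *Nsdhl*, which takes part in removing the methyl groups of lanosterol (-0.53 ± 0.15), were called with adjusted p of 0.0268 and 0.0484. Groups did not overlap for 7 of 18 enzymes on the low side and 1 on the high side, against 22.2% and 21.6% of all genes.

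The other enzymes were not called, with estimates between -0.28 for *Acat2* and 0.18 for *Dhcr7*. Log2 fold changes were -0.11 ± 0.15 for *Hmgcs1*, which makes HMG-CoA, -0.05 ± 0.08 for the squalene epoxidase *Sqle*, -0.01 ± 0.10 for *Cyp51* and 0.18 ± 0.06 for *Dhcr7*, the last enzyme of the pathway. Of the genes of SREBP control, *Srebf2*, which encodes the SREBP that drives the synthesis genes, was 204, 195 and 201 CPM with siCtrl and 211, 183 and 194 with siTnks/2 (-0.03 ± 0.07, edgeR adjusted p = 0.787). *Srebf1*, which encodes the SREBP linked more to fatty acid genes, was 215, 224 and 216 CPM against 264, 295 and 209.8 (0.23 ± 0.12, edgeR adjusted p = 0.22). *Insig1*, itself an SREBP target, was 92.7, 91.7 and 99.8 CPM against 102, 108 and 101, higher in each knockdown library than in any control but not called (0.12 ± 0.06, edgeR adjusted p = 0.18). *Scap* rose by a log2 fold change of 0.21 ± 0.05 (edgeR adjusted p = 0.0289), with 13.2% of its exon bases shared with *5830462I19Rik* on the opposite strand.

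None of the LXR-type genes was called. *Abca1*, the pump that loads cholesterol onto apolipoprotein A-I, was 20.4, 16.2 and 19.5 CPM with siCtrl and 17.8, 23.6 and 16.3 with siTnks/2, and the groups overlapped (0.04 ± 0.16, edgeR adjusted p = 0.884). *Abcg1*, which exports cholesterol to HDL, is given by library because one value stood apart, a choice made after the values were seen. It was 1.80, 2.22 and 1.74 CPM with siCtrl and 1.98, 5.60 and 2.48 with siTnks/2, and the log2 fold change of 0.80 ± 0.40 (edgeR adjusted p = 0.195) was 0.22 without siTnks/2 replicate 2. *Npc1*, a lysosomal membrane protein that passes cholesterol out of the organelle, rose by 0.31 ± 0.07 (edgeR adjusted p = 0.0277), while its soluble partner *Npc2* stood at 0.09 ± 0.15.

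*Cyp7b1*, the hydroxylase that inactivates 25- and 27-hydroxycholesterol, had the largest called change. It was 3.79, 4.69 and 3.70 CPM with siCtrl and 7.70, 11.6 and 7.38 with siTnks/2, a log2 fold change of 1.13 ± 0.21 (edgeR adjusted p = 0.0162). Every knockdown library lay above every control. *Ch25h*, which makes 25-hydroxycholesterol, was near the limit of detection in the siRNA table, with 19, 22 and 13 counts with siCtrl and 17, 3 and 6 with siTnks/2 (-0.99 ± 0.58, edgeR adjusted p = 0.269).

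The knockdown calls rested on few libraries. Among the 18 enzymes, siCtrl replicate 2 held the lowest level of its group for 18 and siTnks/2 replicate 2 for 13. Leaving out each library in turn, *Mvd* was called in 6 of 6 fits, *Cyp7b1* and *Mvk* in 4, *Fdps* in 3, *Lss* and *Npc1* in 2 and *Scap* and *Nsdhl* in 1. Without siCtrl replicate 1 or without siCtrl replicate 3, *Mvd* alone remained called among the members, with adjusted p of 0.07 to 0.0711 for *Cyp7b1* in those fits. The members higher and lower numbered 1 and 3 without siCtrl replicate 2 and 1 and 2 without siTnks/2 replicate 1. With the replicate number as a block, *Acat2* (adjusted p = 0.0184) and the LXR receptor *Nr1h2* (adjusted p = 0.0339) were added to the lower genes, which then numbered 7 beside 3 higher, against 16.5% and 18.1% of all genes.

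**Figure D1:**
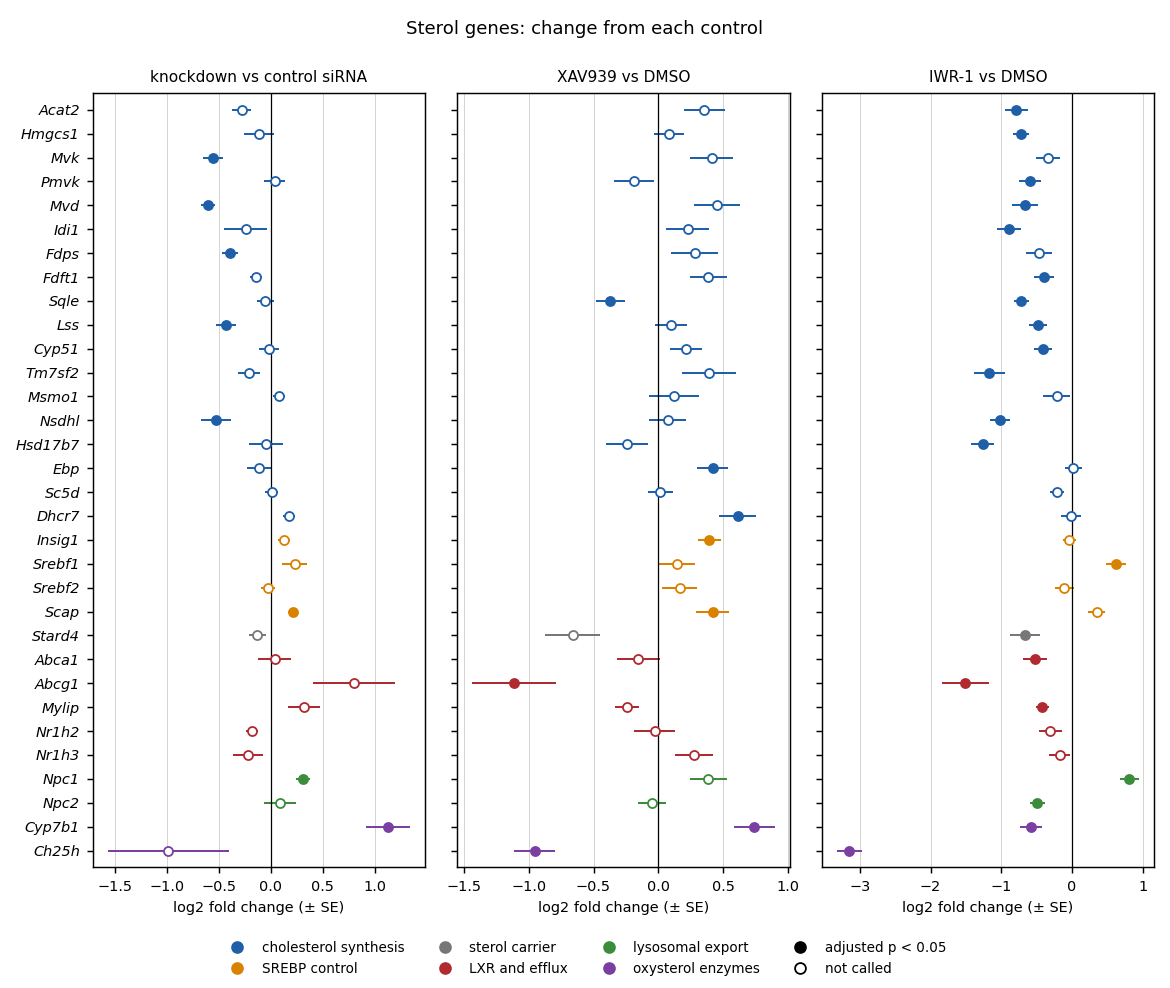
Log2 fold change (x axis, ± SE, n = 3 libraries per group) of each of the 32 genes (y axis, coloured by role) in siTnks/2 against siCtrl, XAV939 against DMSO and IWR-1 against DMSO, with filled points for an adjusted p under 0.05 and a separate x scale in each panel. Of the 18 synthesis enzymes, 14 sit below 0 in the first panel, 15 above 0 in the second and 17 below 0 in the third, with *Ch25h* at -3.15 in the third.

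XAV939 was compared with DMSO next, and the synthesis enzymes stood on the other side of 0. Their median log2 fold change was 0.22, with 15 of 18 above 0, beside 0.02 over all genes tested, but only *Dhcr7* and *Ebp* passed the test as higher and *Sqle* as lower. The members called were 5 higher (*Cyp7b1*, *Insig1*, *Dhcr7*, *Ebp* and *Scap*) and 3 lower (*Ch25h*, *Abcg1* and *Sqle*), against 7.57% and 9.85% of 13873 genes. With the replicate number as a block, 11 members were higher, 7 of them enzymes, and 4 were lower, against 16% and 17.4% of genes. The groups did not overlap for 6 members on the high side and 5 on the low side, against 16.4% and 16.8% of genes.

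*Dhcr7*, which reduces 7-dehydrocholesterol to cholesterol, was 28.8, 29.7 and 22.1 CPM with DMSO and 42.6, 45.6 and 34.9 with XAV939. The groups did not overlap, and the log2 fold change was 0.61 ± 0.14 (SE, n = 3 per group; edgeR adjusted p = 0.0134). *Ebp*, a sterol isomerase that acts shortly before it, rose by 0.42 ± 0.12 (edgeR adjusted p = 0.0349). *Sqle*, the oxygen-dependent step that makes squalene epoxide, was 166, 166 and 149.9 CPM with DMSO and 134, 109 and 130.1 with XAV939 (-0.37 ± 0.11, edgeR adjusted p = 0.0401). Its groups did not overlap either, and it fell while most estimates of the pathway lay above 0.

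DMSO replicate 3 held the lowest level of its group for 13 of the 18 enzymes, and XAV939 replicate 1 the highest of its group for 13. *Mvk* shows the pattern, with 31.1, 31.8 and 21.5 CPM with DMSO and 42.2, 40.0 and 29.998 with XAV939. Compared within the same replicate number, *Mvk* was higher with XAV939 in each of the 3 pairs, and the groups overlapped only through XAV939 replicate 3. Within the pairs 13, 11 and 14 of the 18 enzymes were higher with XAV939. The enzymes called only with the block were *Mvd* (0.46 ± 0.18 without it, adjusted p 0.103 without and 0.00512 with it), *Fdft1* (0.39 ± 0.14, 0.0832 and 0.00595), *Mvk* (0.41 ± 0.17, 0.116 and 0.0147), *Acat2* (0.35 ± 0.16, 0.149 and 0.0218) and *Tm7sf2* (0.39 ± 0.21, 0.23 and 0.0322).

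*Insig1* was 67.2, 64.9 and 65.7 CPM with DMSO and 84.1, 88.5 and 87.0 with XAV939, a tight and separate pair of groups (0.39 ± 0.09, edgeR adjusted p = 0.0122). *Srebf2* was 142, 128 and 147 CPM with DMSO and 141, 187 and 139 with XAV939 (0.16 ± 0.13, edgeR adjusted p = 0.429). *Srebf1* was 146, 151 and 138 CPM with DMSO and 146, 196 and 137 with XAV939 (0.14 ± 0.14, edgeR adjusted p = 0.525). In both genes XAV939 replicate 2 stood above the other libraries, and without it *Srebf1* stood at -0.03.

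No LXR-type gene was called higher with XAV939. *Abca1* was 56.0, 55.1 and 84.4 CPM with DMSO and 58.1, 57.3 and 60.2 with XAV939, with DMSO replicate 3 above all others, and the log2 fold change of -0.15 ± 0.16 (edgeR adjusted p = 0.55) was 0.06 without that library. *Abcg1* fell by 1.11 ± 0.32 on the log2 scale (edgeR adjusted p = 0.0383) at levels of 2.74 to 3.74 CPM with DMSO and 0.943 to 2.41 with XAV939. *Mylip* (-0.24 ± 0.09) and the LXR receptors *Nr1h2* (-0.03 ± 0.16) and *Nr1h3* (0.28 ± 0.14) were not called. *Stard4*, which carries sterol through the cytosol, was at -0.66 ± 0.21 and *Npc1* at 0.39 ± 0.14, with adjusted p of 0.0557 and 0.0803 that became 0.00401 and 0.0186 with the block.

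The oxysterol enzymes moved apart. *Ch25h* was 57.0, 53.4 and 51.4 CPM with DMSO and 26.4, 31.98 and 25.2 with XAV939 (-0.95 ± 0.16, edgeR adjusted p = 0.0027). *Cyp7b1* was 63.6, 68.4 and 51.6 CPM with DMSO and 124, 89.0 and 93.7 with XAV939 (0.74 ± 0.16, edgeR adjusted p = 0.00904). Neither pair of groups overlapped.

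*Ch25h*, *Cyp7b1*, *Insig1* and *Dhcr7* were called in 9 of 9 fits that left out a library. *Abcg1* was called in 4 of the 9, *Sqle* in 3 and *Ebp* and *Scap* in 2, with adjusted p reaching 0.121, 0.131, 0.111 and 0.116. The calls of *Ebp*, *Scap* and *Sqle* were each lost without DMSO replicates 1 or 2, IWR-1 replicates 1 or 2 or XAV939 replicate 2, those of *Ebp* and *Scap* also without DMSO replicate 3, those of *Ebp* and *Sqle* also without XAV939 replicate 1 and that of *Scap* also without IWR-1 replicate 3. *Abcg1* lost its call without DMSO replicates 1 or 3, IWR-1 replicate 2 or XAV939 replicates 1 or 2. Without XAV939 replicate 3 the members called higher numbered 8. In a fit of only the 2 groups compared, *Insig1* (adjusted p = 0.0502), *Abcg1* (0.0613), *Sqle* (0.0806), *Ebp* (0.0887) and *Scap* (0.112) were not called.

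**Figure D2:**
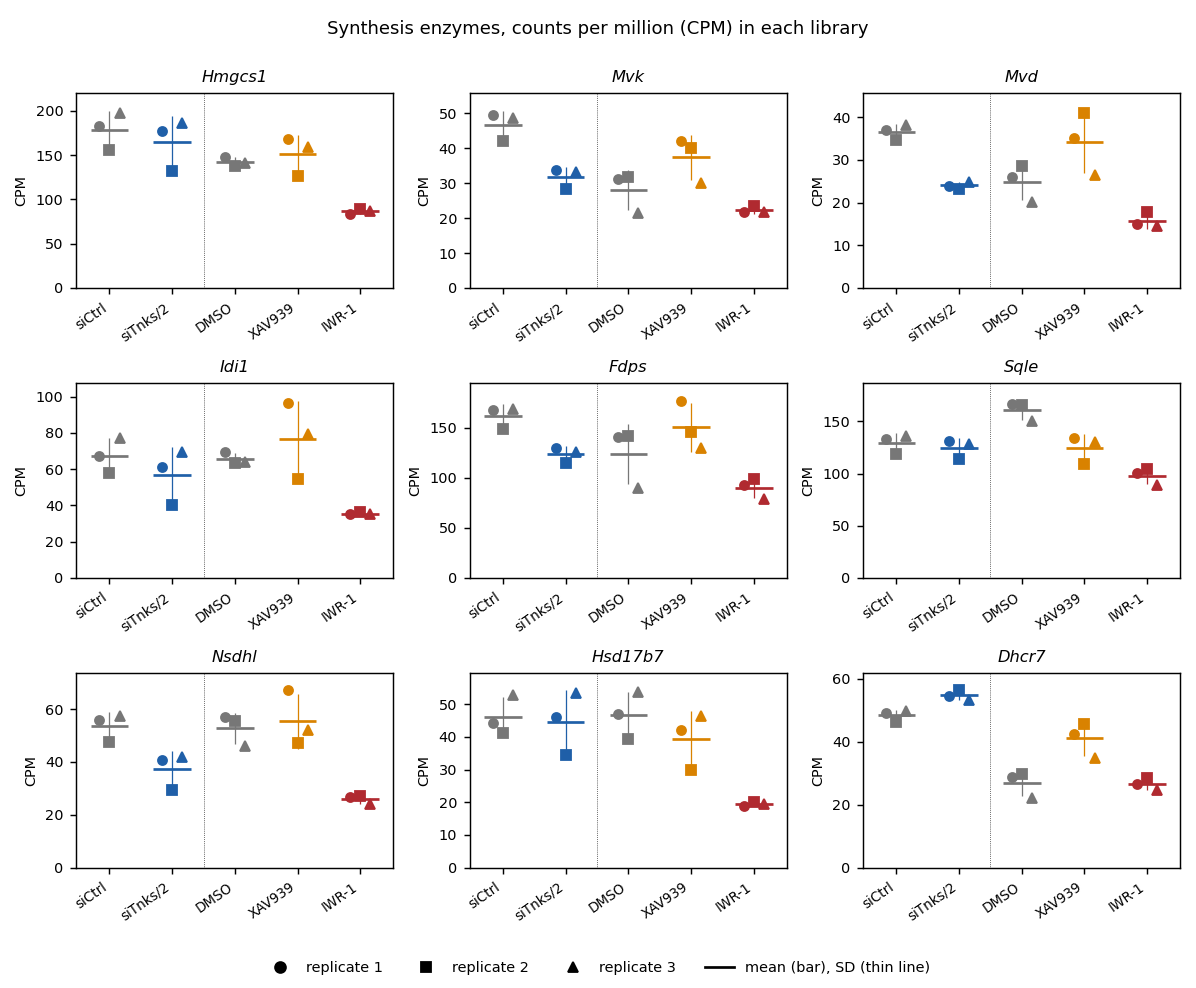
CPM (y axis, from 0) of 9 synthesis enzymes in each library of the 5 groups (x axis), with a symbol for each replicate number, a bar at the mean and a thin line of 1 SD each way. The IWR-1 libraries lie below every DMSO library for *Hmgcs1*, *Mvd*, *Idi1*, *Sqle*, *Nsdhl* and *Hsd17b7*, while those of *Dhcr7* lie within the DMSO range.

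With IWR-1 the synthesis genes fell together. Of the 18 enzymes 12 were lower and none was called higher, 17 of the 18 estimates lay below 0, and the median log2 fold change was -0.53 beside 0.01 over all genes tested. Among the 32 members 2 were higher (*Npc1* and *Srebf1*) and 19 lower, against 16.2% and 20.2% of 13873 genes. With the block they were 3 and 22, against 22.2% and 25.3%, and 3 and 19 members did not overlap between the groups, against 24.7% and 26.4%. The 12 enzymes spanned the pathway, with 5 of the 7 steps up to farnesyl diphosphate and 7 of the 11 from squalene onwards. Beside them *Ch25h*, *Abcg1*, *Abca1*, *Mylip*, *Npc2*, *Cyp7b1* and *Stard4* were lower.

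*Hsd17b7*, a 3-ketosterol reductase, was 47.0, 39.4 and 53.6 CPM with DMSO and 18.8, 20.2 and 19.4 with IWR-1 (-1.26 ± 0.17, SE, n = 3 per group; edgeR adjusted p = 0.000177). *Nsdhl*, which acts in the same demethylation step, was 56.8, 55.4 and 45.9 CPM with DMSO and 26.8, 27.2 and 23.9 with IWR-1 (-1.02 ± 0.14, edgeR adjusted p = 0.00028). *Sqle* was 166, 166 and 149.9 CPM with DMSO and 100.4, 104 and 88.9 with IWR-1 (-0.72 ± 0.11, edgeR adjusted p = 0.000475). In all of these the highest IWR-1 library was below the lowest DMSO library.

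Other enzymes that fell were the sterol reductase *Tm7sf2* (-1.17 ± 0.22), the isopentenyl diphosphate isomerase *Idi1* (-0.89 ± 0.17), *Acat2*, which joins acetyl-CoA units (-0.79 ± 0.16), *Hmgcs1* (-0.72 ± 0.11), *Mvd* (-0.67 ± 0.18) and the phosphomevalonate kinase *Pmvk* (-0.59 ± 0.16). *Lss* (-0.48 ± 0.13), *Cyp51* (-0.41 ± 0.12) and the squalene synthase *Fdft1* (-0.39 ± 0.14) fell less, with *Fdft1* at an adjusted p of 0.0496. Near the end of the pathway *Ebp* (0.02, 95% interval -0.25 to 0.28) and *Dhcr7* (-0.02, -0.33 to 0.29) were not called. *Fdps*, *Mvk*, *Msmo1* and *Sc5d* had estimates of -0.46 to -0.22 that were not called, of which *Fdps* (adjusted p = 0.00541) and *Mvk* (adjusted p = 0.0396) were called with the block. Shared exon bases make *Fdft1* (18.3% with *Ctsb*, on the opposite strand), *Hmgcs1* (12.1% with the antisense *Gm48342*), *Idi1* (9.22% with *Gm48574*, on the opposite strand) and *Tm7sf2* (12.1% with *Vps51*, on the same strand) less certain, and *Acat2* has a close paralogue, *Acat3*.

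*Srebf2* was 142, 128 and 147 CPM with DMSO and 113, 139 and 134 with IWR-1, so the groups overlapped (-0.11 ± 0.13, edgeR adjusted p = 0.566). *Insig1* was 67.2, 64.9 and 65.7 CPM against 61.4, 69.9 and 61.6 (-0.04 ± 0.09, edgeR adjusted p = 0.782), with the groups overlapping. *Srebf1* was 146, 151 and 138 CPM against 201, 253 and 219.8 and rose (0.63 ± 0.14, edgeR adjusted p = 0.0054). The count of *Srebf1* covers all of its transcripts and does not separate the forms made from its alternative starts. *Scap* stood at 0.35 ± 0.13 with an adjusted p of 0.0507, which was 0.0194 with the block.

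Efflux and LXR-type transcripts were lower as well. *Abca1* was 56.0, 55.1 and 84.4 CPM with DMSO and 38.5, 47.8 and 49.8 with IWR-1 (-0.52 ± 0.16, edgeR adjusted p = 0.029). *Abcg1* fell by 1.51 ± 0.33 and *Mylip* by 0.42 ± 0.09 on the log2 scale, with adjusted p of 0.00455 and 0.00518. Levels of *Abcg1* were low, at 2.74 to 3.74 CPM with DMSO and 0.843 to 1.45 with IWR-1. The receptors *Nr1h2* (-0.31 ± 0.16) and *Nr1h3* (-0.17 ± 0.15) were not called, although *Nr1h2* reached an adjusted p of 0.047 with the block. SREBP and LXR move synthesis and efflux genes in opposite senses with sterol load. Here 12 of the 18 enzymes and 3 of the 5 LXR-type genes were called lower. *Insig1* was not called and *Srebf1* rose. A change of sterol load was not tested.

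*Ch25h* showed the largest change of the 32 genes, with 57.0, 53.4 and 51.4 CPM in DMSO and 5.03, 5.33 and 7.86 in IWR-1, a log2 fold change of -3.15 ± 0.18 (edgeR adjusted p = 1.52e-06). The highest IWR-1 library held 271 counts and the lowest DMSO library 1634. Its exon overlaps a divergent non-coding transcript, *Gm26902*, over 11.5% of its bases. *Cyp7b1* fell by 0.58 ± 0.16 on the log2 scale (edgeR adjusted p = 0.0146), the one gene called in all 3 comparisons with a control, higher with knockdown and XAV939 and lower with IWR-1. The lysosomal pair split, *Npc1* rising by 0.81 ± 0.14 (edgeR adjusted p = 0.00101) and *Npc2* falling by 0.49 ± 0.11 (edgeR adjusted p = 0.00505). *Stard4* fell by 0.66 ± 0.21 (edgeR adjusted p = 0.0318).

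Markers of other cells moved in the same libraries. The 12 macrophage and leukocyte markers summed to 35.01 to 44.7 CPM with DMSO, 32.01 to 38.8 with XAV939 and 14.6 to 20.4 with IWR-1, and 3 of the 5 tested were lower with IWR-1. Those 3 were *Cd14* (a mean of 27.4 CPM with DMSO and 8.98 with IWR-1), *Cd68* (8.66 and 4.23) and *Csf1r* (1.03 and 0.425). *Cd14* made up most of the macrophage and leukocyte sum with DMSO, 27.4 of a mean of 41.1 CPM. The study lists *Cd14* among its cartilage-signature genes. The defining markers *C1qa*, *C1qb*, *C1qc* and *Tyrobp* were at 3 counts or fewer in every library of these groups. Macrophages are a known source of *Ch25h* transcripts, but which cells made them in these cultures was not tested. The 7 adipocyte markers summed to 38.5 to 51.0 CPM with DMSO, 27.9 to 34.8 with XAV939 and 17.5 to 28.6 with IWR-1. Most of that sum is *Fabp4*, which fell from a mean of 41.2 to 13.5 CPM with IWR-1, while *Plin4* rose from 1.47 to 8.59. The chondrocyte marker sum was higher with IWR-1 and the fibroblast or synovial sum, most of it *Col1a1*, lower. Of the 8 fibroblast or synovial markers 2 were called higher with IWR-1 (*Postn* and *Pi16*) and 3 lower. The part of these shifts in the sterol results was not tested.

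IWR-1 replicate 2 held the highest level of its group for 17 of the 18 enzymes. Leaving out each library in turn, 14 of the 21 members called with IWR-1 were called in every fit, among them 8 of the 12 enzymes. *Fdft1* kept its call in the fits without DMSO replicate 3 and without XAV939 replicate 3 and lost it in the other 7. *Cyp51* lost its call without DMSO replicates 1 or 2 or IWR-1 replicates 1 or 3, *Lss* without DMSO replicate 1 or IWR-1 replicate 1, *Cyp7b1* without DMSO replicate 1 and *Mvd* without IWR-1 replicate 1, with adjusted p up to 0.0989. *Abca1* and *Stard4* lost it without DMSO replicate 3, the library in which both were highest, with log2 fold changes of -0.30 and -0.40, and without IWR-1 replicates 1 or 2. In a fit of only the 2 groups *Abca1* was not called (adjusted p = 0.0551).

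**Figure D3:**
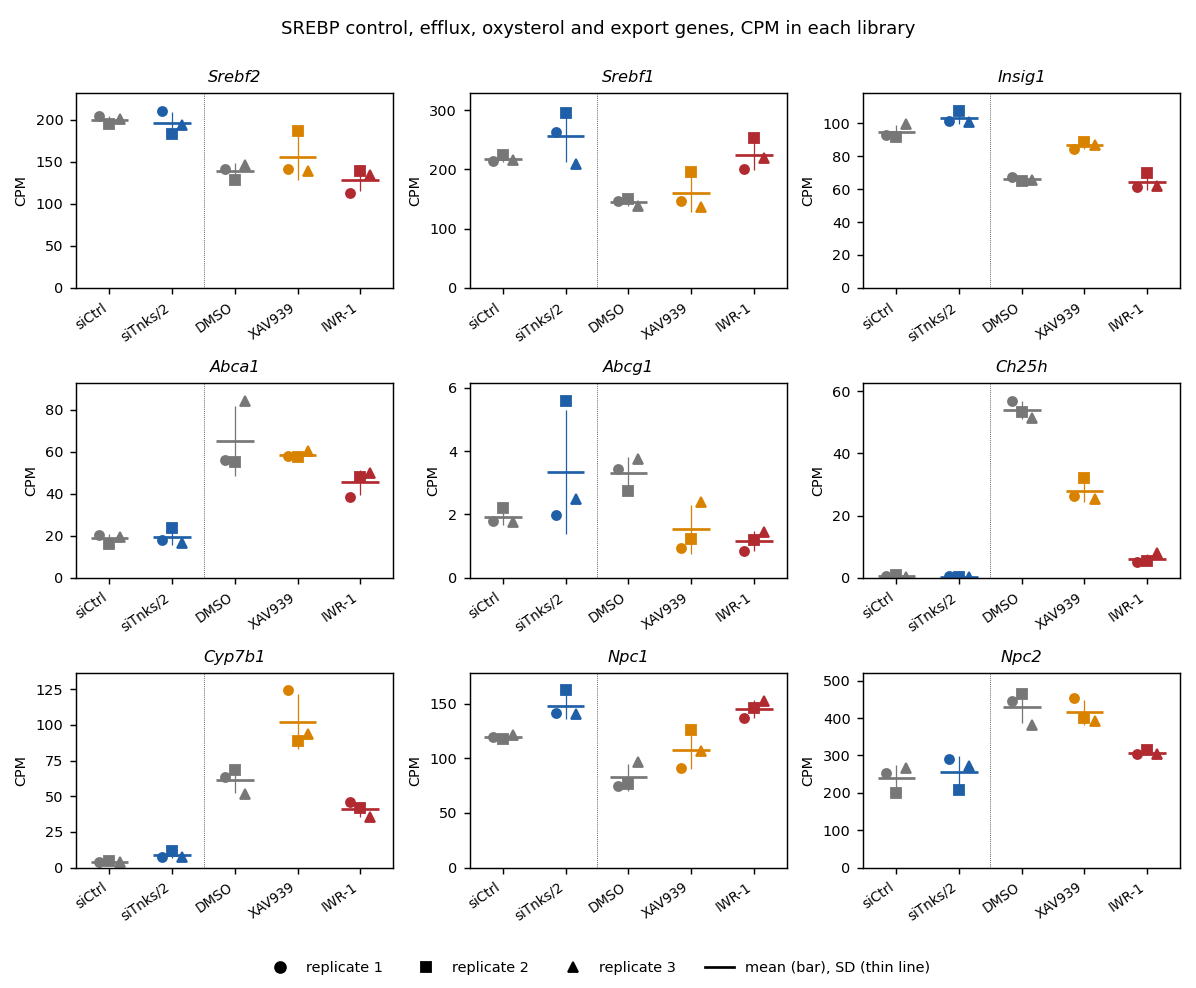
CPM (y axis, from 0) of 9 genes of SREBP control, efflux, oxysterol metabolism and lysosomal export in each library of the 5 groups (x axis), with a symbol for each replicate number, a bar at the mean and a thin line of 1 SD each way. *Ch25h* falls from 51.4 to 57.0 with DMSO to 5.03 to 7.86 with IWR-1 and is under 1 in the siRNA table, and *Insig1* is separate from DMSO with XAV939 and overlaps it with IWR-1.

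XAV939 and IWR-1, which differ in structure and bind different pockets of the tankyrase catalytic domain, were then compared with each other at the same dose and time. They are the 1 pair of compounds in the series, and p-values were adjusted over all genes. All 18 enzymes had lower estimates with IWR-1 and 14 were called lower, with a median log2 difference of -0.74 beside -0.00 over all genes. Of the 32 members 1 was higher with IWR-1 (*Srebf1*) and 18 were lower, against 7.37% and 10.2% of 13873 genes. With the block they were 2 and 22, against 14.1% and 16.6%, and 2 and 24 members did not overlap, against 18.2% and 19.4%. Every IWR-1 library lay below every XAV939 library for 17 of the 18 enzymes, the exception being *Msmo1*. Within the pairs of one replicate number, IWR-1 was the lower for 18, 17 and 18 of the enzymes.

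The differences in synthesis were widest for *Tm7sf2* (-1.56, 95% interval -2.05 to -1.07), *Acat2* (-1.14, -1.49 to -0.79), *Mvd* (-1.12, -1.52 to -0.72) and *Idi1* (-1.12, -1.49 to -0.74). *Hmgcs1* differed by -0.81 ± 0.11, *Fdft1* by -0.78 ± 0.14 and *Dhcr7*, at its DMSO level with IWR-1, by -0.63 ± 0.14. *Pmvk*, *Sqle*, *Msmo1* and *Sc5d* were not called, with estimates of -0.40 to -0.23, and of these *Pmvk* (adjusted p = 0.0253) and *Sqle* (adjusted p = 0.0213) were called with the block.

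Outside synthesis, *Ch25h* differed by -2.19 ± 0.17 (edgeR adjusted p = 4.39e-05) and *Cyp7b1* by -1.32 ± 0.16 (edgeR adjusted p = 0.000486). *Cyp7b1* was 45.8, 41.8 and 35.3 CPM with IWR-1 and 89.0 CPM in the lowest XAV939 library. *Insig1* was lower with IWR-1 (-0.43 ± 0.09, edgeR adjusted p = 0.00754), as was *Npc2* (-0.44 ± 0.11), and *Srebf1* was higher (0.49 ± 0.14, edgeR adjusted p = 0.0375). For *Stard4* (0.00, 95% interval -0.47 to 0.47), *Scap* (-0.07, -0.35 to 0.21) and *Srebf2* (-0.27, -0.57 to 0.02) no difference was called, and the intervals leave room for moderate ones. None of the 5 LXR-type genes was called, with *Abca1* at -0.37 (95% interval -0.73 to -0.00) and *Nr1h3* at -0.45 (-0.77 to -0.13), both called with the block (adjusted p of 0.0329 and 0.0286). *Npc1* stood at 0.43 (0.12 to 0.73) and was also called with the block (adjusted p = 0.0108).

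Without any one library, 12 of the 19 members called between the compounds were called in every fit, 10 of the 14 enzymes among them. *Ebp* kept its call in the fits without DMSO replicate 1 and without DMSO replicate 3 and lost it in the other 7. *Srebf1* lost its call without DMSO replicate 1, any of the IWR-1 replicates, XAV939 replicate 1 or XAV939 replicate 3, with adjusted p up to 0.158. *Fdps* and *Npc2* lost theirs without IWR-1 replicates 1 or 3 or XAV939 replicate 1, *Npc2* also without IWR-1 replicate 2, and *Insig1*, *Lss* and *Mvk* without IWR-1 replicate 1 only, with adjusted p of 0.0513 to 0.058. Without IWR-1 replicate 1 the lower members numbered 12. In a fit of only the 2 groups *Srebf1* was not called (adjusted p = 0.0562).

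**Figure D4:**
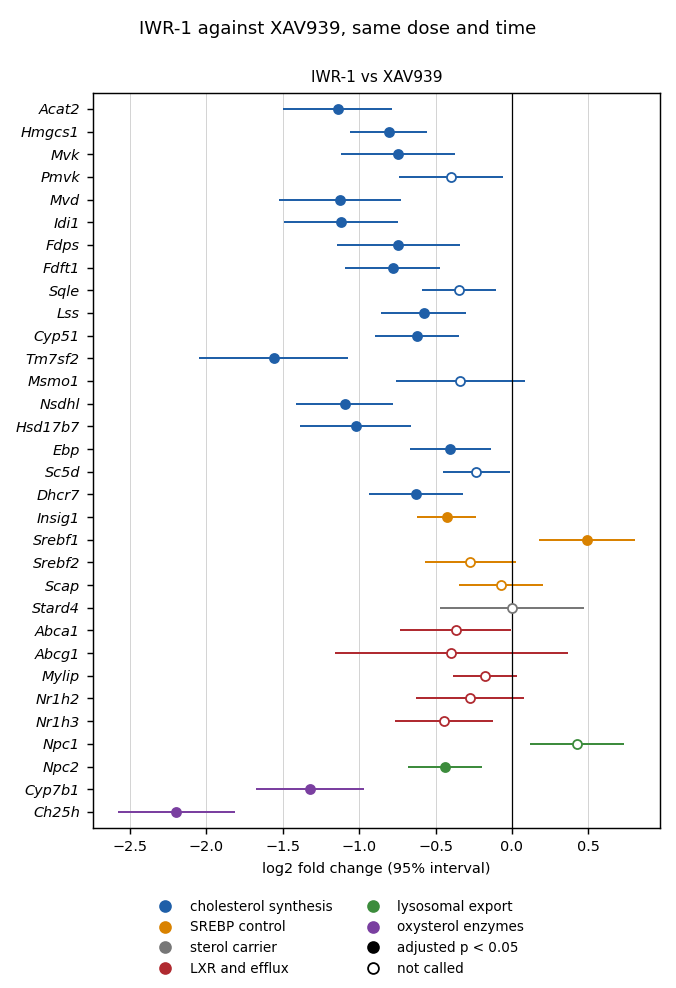
Log2 difference between IWR-1 and XAV939 (x axis, with its 95% interval, n = 3 libraries per group) for each of the 32 genes (y axis, coloured by role), filled where the adjusted p was under 0.05. All 18 synthesis enzymes lie below 0, *Srebf1* and *Npc1* lie above it and *Stard4* sits at 0.00.

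Summed up by library, the mean log2 CPM of the 18 enzymes was 5.75, 5.72 and 5.45 with DMSO, 5.99, 5.75 and 5.72 with XAV939 and 5.07, 5.17 and 4.97 with IWR-1. It was 5.92, 5.76 and 5.99 with siCtrl and 5.76, 5.56 and 5.77 with siTnks/2. The IWR-1 libraries were below all the others. The ranges of siTnks/2 and siCtrl overlapped, as did those of XAV939 and DMSO. Within the same replicate number the mean was lower with siTnks/2 than with siCtrl in 3 of 3 pairs and higher with XAV939 than with DMSO in 3 of 3 pairs. In the drug pair of replicate 2 the means were nearly equal, at 5.75 with XAV939 and 5.72 with DMSO, and pairing by number is uncertain for the drugs.

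**Figure D5:**
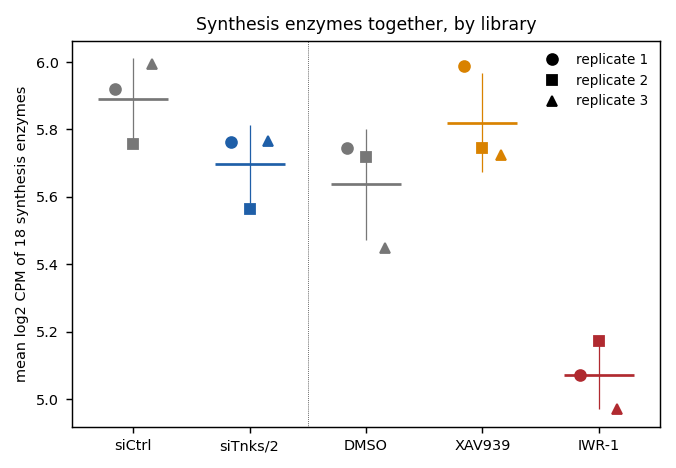
Mean log2 CPM over the 18 synthesis enzymes (y axis, not starting at 0) in each library of the 5 groups (x axis), with a symbol for each replicate number, a bar at the mean and a thin line of 1 SD each way. The IWR-1 libraries lie between 4.97 and 5.17, below the lowest of the others at 5.45.

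Whether the effects of an inhibitor and of knockdown differed was tested with 1 model over the 15 libraries. The XAV939 effect was more positive than the knockdown effect for *Mvd* (difference 1.05 ± 0.21, edgeR adjusted p = 0.0059), *Mvk* (0.95 ± 0.21, edgeR adjusted p = 0.00956) and *Acat2* (0.62 ± 0.20, edgeR adjusted p = 0.0498), and more negative for *Abcg1* and *Mylip*. These 3 and 2 members stand against 5.4% and 8.07% of the 14271 genes tested. With the block 10 members, all of them enzymes, were more positive and 3 more negative, against 12.7% and 15.4% of genes. Those gained were *Fdps* (adjusted p with the block 0.00293), *Fdft1* (0.00405), *Ebp* (0.00621), *Nsdhl* (0.00785), *Dhcr7* (0.0133), *Lss* (0.024) and *Tm7sf2* (0.0265) on the positive side and *Stard4* (0.0369) on the negative side. Upper-quartile scaling moved the share of all calls that were positive from 40.1% to 52.7%, and gave 6 more positive and 1 more negative member.

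For IWR-1 the effect was more negative than that of knockdown for 10 members and more positive for none, against 13.9% and 10.5% of genes. The 10 were *Hsd17b7*, *Tm7sf2*, *Sqle*, *Pmvk*, *Hmgcs1*, *Cyp7b1*, *Ch25h*, *Abcg1*, *Mylip* and *Npc2*. At an unadjusted p under 0.05 a single member, *Npc1*, was more positive in edgeR, and DESeq2 gave 0 at its adjusted p. With the block 1 member was more positive and 15 more negative, against 17% and 19.3% of genes. Those gained were *Npc1* (adjusted p with the block 0.017) on the positive side and *Acat2* (0.00902), *Nsdhl* (0.0149), *Cyp51* (0.0193), *Idi1* (0.02) and *Stard4* (0.0291) on the negative side. *Ch25h* lost the call without siTnks/2 replicate 1, where its difference was -1.25 (adjusted p = 0.182) instead of -2.18, and was not tested when at least 10 counts were required in every library. *Mvd*, *Lss* and *Fdps*, lower with knockdown, had differences of -0.07 ± 0.21, -0.06 ± 0.17 and -0.08 ± 0.22 that were not called.

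Genes of the same pathways that are not among the 32 were followed as lists of 14 other sterol genes and 14 fatty acid genes of the SREBP1 type. Their counts of calls stand beside the shares of all genes called, which were 10.4% higher and 7.61% lower with knockdown, 7.57% and 9.85% with XAV939, 16.2% and 20.2% with IWR-1 and 7.37% and 10.2% between the inhibitors. With knockdown 0 other sterol genes were higher and 4 lower, led by the HDL receptor *Scarb1* (-0.54 ± 0.07, edgeR adjusted p = 0.00698). With XAV939 the counts were 0 and 3, led by *Insig2*, the second SCAP retention protein (-0.93 ± 0.09, edgeR adjusted p = 0.000137), and the cholesterol esterifying enzyme *Soat1* (-0.53 ± 0.12, edgeR adjusted p = 0.012). With IWR-1 they were 2 and 5, led by *Insig2* (-1.34 ± 0.09, edgeR adjusted p = 3.62e-06) and *Scarb1* (-1.48 ± 0.15, edgeR adjusted p = 3.66e-05). *Insig2* was lower with both inhibitors, where *Insig1* was higher with XAV939 and not called with IWR-1. Between the inhibitors 2 were higher and 3 lower with IWR-1, led by *Soat1* (0.78 ± 0.12) and *Scarb1* (-0.92 ± 0.15).

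Of the fatty acid genes 2 were higher and 1 lower with knockdown, led by malic enzyme *Me1* (0.44 ± 0.07, edgeR adjusted p = 0.0111) and the acetoacetyl-CoA synthetase *Aacs* (-0.39 ± 0.07, edgeR adjusted p = 0.0135). With XAV939 2 were higher and 3 lower, led by *Mid1ip1*, whose product promotes acetyl-CoA carboxylase activity (0.86 ± 0.12, edgeR adjusted p = 0.000968), and the desaturase *Scd2* (-0.80 ± 0.12, edgeR adjusted p = 0.00153). With IWR-1 3 were higher and 5 lower, led by the acetyl-CoA synthetase *Acss2* (-1.12 ± 0.12, edgeR adjusted p = 6.26e-05) and *Mid1ip1* (1.05 ± 0.12, edgeR adjusted p = 7.61e-05). Between the inhibitors 2 were higher and 3 lower with IWR-1, led by *Acss2* (-0.70 ± 0.12) and the lipase *Pnpla3* (-1.49 ± 0.37).

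Set side by side, 18 members were called in 1 of the 3 comparisons with a control, 8 in 2, *Cyp7b1* in all 3, and *Nr1h2*, *Nr1h3*, *Srebf2*, *Msmo1* and *Sc5d* in none. The XAV939 and IWR-1 comparisons share the DMSO libraries. Per kilobase of exon, *Npc2* was the most abundant member in each group, with a mean of 79.2 ± 7.97 CPM per kb with DMSO (SD, n = 3), and *Hmgcs1* was the most abundant enzyme there at 31.0 ± 1.12. *Ch25h* ranked second of the 32 with DMSO at 38.9 ± 2.07 CPM per kb. In the siRNA table it ranked 31 with siCtrl at 0.433 ± 0.150 and last with siTnks/2 at 0.215 ± 0.185, a change that was not called.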

How the data were processed

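Poly(A) RNA from 15 cultures was sequenced after TruSeq stranded mRNA preparation. The authors deposited raw read counts per gene in 2 tables, one for siRNA and one for drugs. The submitters' processing notes name Trimmomatic 0.32, TopHat2 2.0.13, HTSeq 0.6.1p1 and mm10 (GRCm38). Which annotation HTSeq read, and whether it counted by strand, is not given in the sources used here, so counts of overlapping or antisense genes cannot be separated with certainty. Exon lengths and shared exon bases came from the GENCODE mouse annotation. Whether the overlapping gene models named here were in the annotation that was counted is not known. Entrez identifiers were matched to symbols for 24051 of 24134 genes, leaving 83 without one. Library totals were 26857070 to 36615194 counts.

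Counts were scaled by TMM, filtered with filterByExpr (minimum count 10) and tested with edgeR 4.0.16 (quasi-likelihood F test, two-sided, prior count 0.125, R 4.3.3), with Benjamini-Hochberg adjustment over all genes and calls at an adjusted p under 0.05. The drug fit held all 3 drug-table groups. Differences between drug and knockdown effects came from a model of all 15 libraries, 1 mean per group, in which the table and the group cannot be told apart for levels. SE and 95% intervals are those of the fitted log2 fold change. Alternatives were RLE and upper-quartile scaling, no low-count filter, at least 10 counts in every library, DESeq2 1.42.0, the replicate number as a block, leaving out each library and, for the drugs, only the 2 groups compared.

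Samples with the same replicate number deviated together, by correlations of deviations from group means. These were 0.163 to 0.733 in 9 drug pairs and 0.550 to 0.581 in 3 siRNA pairs, all above 0.1. Pairs of different numbers gave -0.721 to 0.561 in 18 drug pairs and -0.499 to 0.182 in 6 siRNA pairs. DMSO replicate 2 correlated more with IWR-1 replicate 1 (0.561) and XAV939 replicate 1 (0.469) than with their replicates 2 (0.373 and 0.163). Blocked values are printed where they change a call, and for the drugs they rest on an uncertain pairing. Nothing states that replicates came from separate animals, so p-values measure the spread between these libraries. Replicates of a group differed by more than counting noise in all 15 pairs. On simulated counts with 200 genes changed 4-fold, edgeR recovered 91.5% of them in the knockdown comparison, with 5.18% of its calls false, and 94% in the IWR-1 comparison, with 8.74% false. With the replicate block 89% and 94.5% were recovered with 9.18% and 5.97% of calls false, and with DESeq2, without the block, 88% and 93.5% with 20% and 18.3% false. Nearly all changes of the members were smaller than 4-fold, so these rates do not describe how well such changes are found. The simulated counts held no effect shared by a replicate number, so they cannot decide whether the block suits these data.

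The members and all lists were chosen with earlier results of these data known. Values in every library are given for *Srebf2*, *Insig1*, *Srebf1*, *Abca1* and, per comparison with a control, the 4 members of smallest adjusted p, and for others where a statement turns on them. Of the 2 lists of other pathway genes, the 2 smallest adjusted p per comparison are named, except 1 gene in the knockdown comparison that is not reported here. Promoter windows came from RefSeq tables, and figures were drawn with matplotlib 3.10.9.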

Additional observations from a re-analysis of the deposited data

Results flagged for a closer look

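The test of the difference between effects in the model of 15 libraries singled out 15 results, each a log2 difference between an inhibitor's effect against DMSO and the knockdown effect against siCtrl. For XAV939 they were *Mvd* at 1.05, *Mvk* at 0.95, *Acat2* at 0.62, *Mylip* at -0.58 and *Abcg1* at -1.93. For IWR-1 the enzymes were *Hsd17b7* at -1.23, *Tm7sf2* at -0.96, *Sqle* at -0.67, *Pmvk* at -0.63 and *Hmgcs1* at -0.62. Outside synthesis they were *Abcg1* at -2.32, *Ch25h* at -2.18, *Cyp7b1* at -1.72, *Mylip* at -0.75 and *Npc2* at -0.59. When each of the 15 libraries was left out in turn, *Mvd* and *Mvk* for XAV939 and *Abcg1*, *Cyp7b1*, *Hsd17b7*, *Mylip*, *Sqle* and *Tm7sf2* for IWR-1 kept their calls in every fit. *Acat2* and *Mylip* for XAV939 lost theirs in 13 of 15, *Abcg1* for XAV939 and *Npc2* for IWR-1 in 7, *Pmvk* in 5, *Hmgcs1* in 3 and *Ch25h* in 1.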

How the results depend on the processing

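No called member changed its direction under any alternative run. For XAV939 against DMSO, 3 members were higher with no low-count filter, beside 877 of all 18612 genes tested. With only the 2 groups compared 2 were higher and 1 lower, beside 550 and 1019 of 13631 genes. With the replicate block 11 were higher, beside 16% of genes. For IWR-1 against XAV939 the higher members numbered 2 with DESeq2 and 2 with the block, beside 1275 and 1962 of 13873 genes. For the XAV939 effect minus the knockdown effect, 5 were higher at a minimum of 10 counts, beside 785 of 12432 genes. With DESeq2 7 were higher, with upper-quartile scaling 6 and with the block 10, beside 1001, 1011 and 1814 of 14271 genes. On the lower side 1 was called with upper-quartile scaling, beside 907 of 14271 genes, and 1 with no filter, beside 968 of 19282. For the IWR-1 effect minus the knockdown effect, 1 was higher at a minimum of 10 counts, 1 with upper-quartile scaling and 1 with the block. These stand beside 1395 of 12432 genes at that minimum, and 1681 and 2424 of 14271 with the scaling and the block. The cause was not tested. The other alternatives kept these member counts within 1.5 times.

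Leaving out each library in turn, the members higher and lower ranged over 0 to 4 and 1 to 6 for knockdown, 3 to 8 and 1 to 3 for XAV939, 2 to 3 and 13 to 20 for IWR-1, 0 to 2 and 12 to 21 between the inhibitors, 2 to 8 and 0 to 2 for XAV939 minus knockdown and 0 to 1 and 6 to 14 for IWR-1 minus knockdown. Several uncalled estimates near 0 changed sign, among them those of *Abca1* with knockdown (-0.05 without siCtrl replicate 2 and -0.13 without siTnks/2 replicate 2, range -0.13 to 0.14), *Srebf2* with knockdown (0.0155 without siTnks/2 replicate 2, range -0.0858 to 0.0155), *Abca1* with XAV939 (0.0643 without DMSO replicate 3, range -0.26 to 0.0643) and *Srebf1* with XAV939 (-0.0318 without XAV939 replicate 2, range -0.0318 to 0.23). Single calls also ended for XAV939 for *Scap* with RLE factors (adjusted p = 0.0514) or no filter (0.0616), *Ebp* with no filter (0.0517) and *Sqle* with upper-quartile scaling (0.0702), for IWR-1 for *Fdft1* with upper-quartile scaling (0.0718), between the inhibitors for *Ebp* with no filter (0.0545), and for XAV939 minus knockdown for *Mylip* with upper-quartile scaling (0.0637) or no filter (0.0569). Fits with fewer libraries have fewer degrees of freedom, and the shares of all genes called in them are not given here. Upper-quartile scaling also moved the share of all XAV939 calls that were higher from 43.5% to 53.3%. The replicate block changed no call of a member other than those given with the results.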
